A study of Homo sapiens with 4 samples.

Results

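The genes described here are 10 regulators and markers of the epithelial-mesenchymal transition, out of 20037 protein-coding genes in the RefSeq table of GRCh38.p14. They were taken by name, 3 of them on the epithelial side (*CDH1*, *EPCAM*, *GRHL2*) and 7 on the mesenchymal side (*CDH2*, *VIM*, *ZEB1*, *ZEB2*, *SNAI1*, *SNAI2*, *TWIST1*). Their chromatin accessibility was read from ATAC-seq, an assay whose transposase cuts and tags DNA where it is not covered by nucleosomes. The cells were LNCaP, an androgen-responsive line from a lymph node metastasis of prostate cancer with genotype WT in the labels, and LNCaP-resistance, its counterpart treated with enzalutamide, an androgen receptor antagonist. There were 2 libraries of each, and the batch label pairs the first library of one line with the first of the other and likewise for the second. The study first adapted the cells to charcoal-stripped serum, to mimic androgen deprivation, and then raised its resistant sublines stepwise in rising drug. The labels do not give the subline behind these libraries, nor do they say whether the libraries are separate cultures. The spread between libraries may therefore be technical.

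The deposited data are lists of summits, the single positions where the peaks of open chromatin were highest, each with a score. The windows of the 10 genes, the gene body plus 20 kb on either side, held 65 of 117245 summits in LNCaP 1 and 73 of 107344 in LNCaP 2. They held 52 of 70866 in LNCaP-resistance 1 and 33 of 45618 in LNCaP-resistance 2. Widened by 250 bp on either side and merged across libraries, these gave 94 of 150917 regions. Since the lists differ in length, each score was ranked within its own library and is given as a percentile, with 0 where no summit was listed. A value was called higher or lower when both resistant libraries lay on the same side of both LNCaP libraries. With 2 libraries against 2, no exact permutation test can go below a two-sided p of 0.333, so no test was made and the share of all genes or regions called is given as the background. A list that lacks weak summits gives its remaining summits lower percentiles by construction, so the values are also given with equal numbers of summits, the 45618 highest of each library.

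In the epithelial-mesenchymal transition, cells give up the adherens junctions that E-cadherin holds together and gain motility. Transcription factors of the ZEB, SNAI and TWIST families bind E-boxes in the promoters of epithelial genes and repress them, whereas GRHL2 maintains epithelial genes and opposes ZEB1. N-cadherin and vimentin are the classical structural markers of the mesenchymal state. In prostate cancer, the program has been linked to invasion and to loss of luminal identity under androgen receptor blockade.

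Promoter sequences of RefSeq (GRCh38.p14) were matched to 4 of the 10 genes, *CDH2*, *VIM*, *ZEB1* and *ZEB2*. Those of *CDH2* and *ZEB1* are shown because a summit lay there in both libraries of only one cell line, and that of *ZEB2* for comparison. Each line gives the 250 bases before the annotated start, 5′ to 3′ on the gene's strand, and capitals mark E-boxes (CANNTG, read on both strands).
CDH2 (chr18:28177131-28177380, minus strand): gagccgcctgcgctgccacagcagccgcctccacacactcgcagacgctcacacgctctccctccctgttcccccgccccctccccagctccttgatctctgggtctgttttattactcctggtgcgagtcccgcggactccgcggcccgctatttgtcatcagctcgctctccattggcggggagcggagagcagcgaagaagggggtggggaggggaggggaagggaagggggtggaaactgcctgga
ZEB1 (chr10:31318167-31318416, plus strand): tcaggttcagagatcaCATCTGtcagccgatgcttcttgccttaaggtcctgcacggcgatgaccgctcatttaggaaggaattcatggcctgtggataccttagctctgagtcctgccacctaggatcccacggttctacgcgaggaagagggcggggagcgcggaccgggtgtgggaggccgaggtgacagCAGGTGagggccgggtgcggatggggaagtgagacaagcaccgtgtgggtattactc
ZEB2 (chr2:144520120-144520369, minus strand): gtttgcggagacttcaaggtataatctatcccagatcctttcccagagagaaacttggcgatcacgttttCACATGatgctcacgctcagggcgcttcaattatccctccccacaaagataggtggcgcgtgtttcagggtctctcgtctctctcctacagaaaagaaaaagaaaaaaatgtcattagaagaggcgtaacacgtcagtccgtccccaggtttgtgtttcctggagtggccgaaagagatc
The *CDH2* stretch held no E-box, that of *ZEB1* held 2 and that of *ZEB2* held 1. In *ZEB1* one of these is CAGGTG, the form that ZEB and SNAI factors bind. Among 34943 promoter windows of 300 bases, from 250 before to 50 after the start, 68.7% held an E-box of any form, 20.6% held CACCTG or CAGGTG and 0.132% held the grainyhead motif AACCGGTT. None of the 4 promoters held AACCGGTT. A match describes these letters only, and no binding was measured.

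Neither side moved as a block. By the strongest summit in each window, 0 of the 3 epithelial genes were higher in the resistant cells, 1 was lower and 2 overlapped, and of the 7 mesenchymal genes 1 was higher, 5 were lower and 1 overlapped. Over all protein-coding genes 14.7% were higher and 40.9% lower. With equal numbers of summits the split of all genes turned, to 42.6% higher and 18.1% lower, and the mesenchymal genes were then 4 higher and 3 lower, while 1 epithelial gene was higher and 2 overlapped. The median change, resistant minus LNCaP, was −1.28 percentile points for the epithelial genes, −10.4 for the mesenchymal genes and −1.88 for all genes, and 4.03, 8.14 and 2.84 with equal numbers. Within the first batch the medians were 2.46 and −8.24, and within the second −5.66 and −15.7. Those of all genes were −0.772 in the first batch and −3.23 in the second. The epithelial median was 1.05 without LNCaP-resistance 2 and −4.41 without LNCaP-resistance 1, and the mesenchymal median was −6.80 and −20.8. The median of all genes was −0.473 and −3.55 in the same order. The genes whose direction did not depend on the list length were *ZEB1*, *SNAI2* and *CDH2*, lower, and *TWIST1*, higher.

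**Figure D1:**
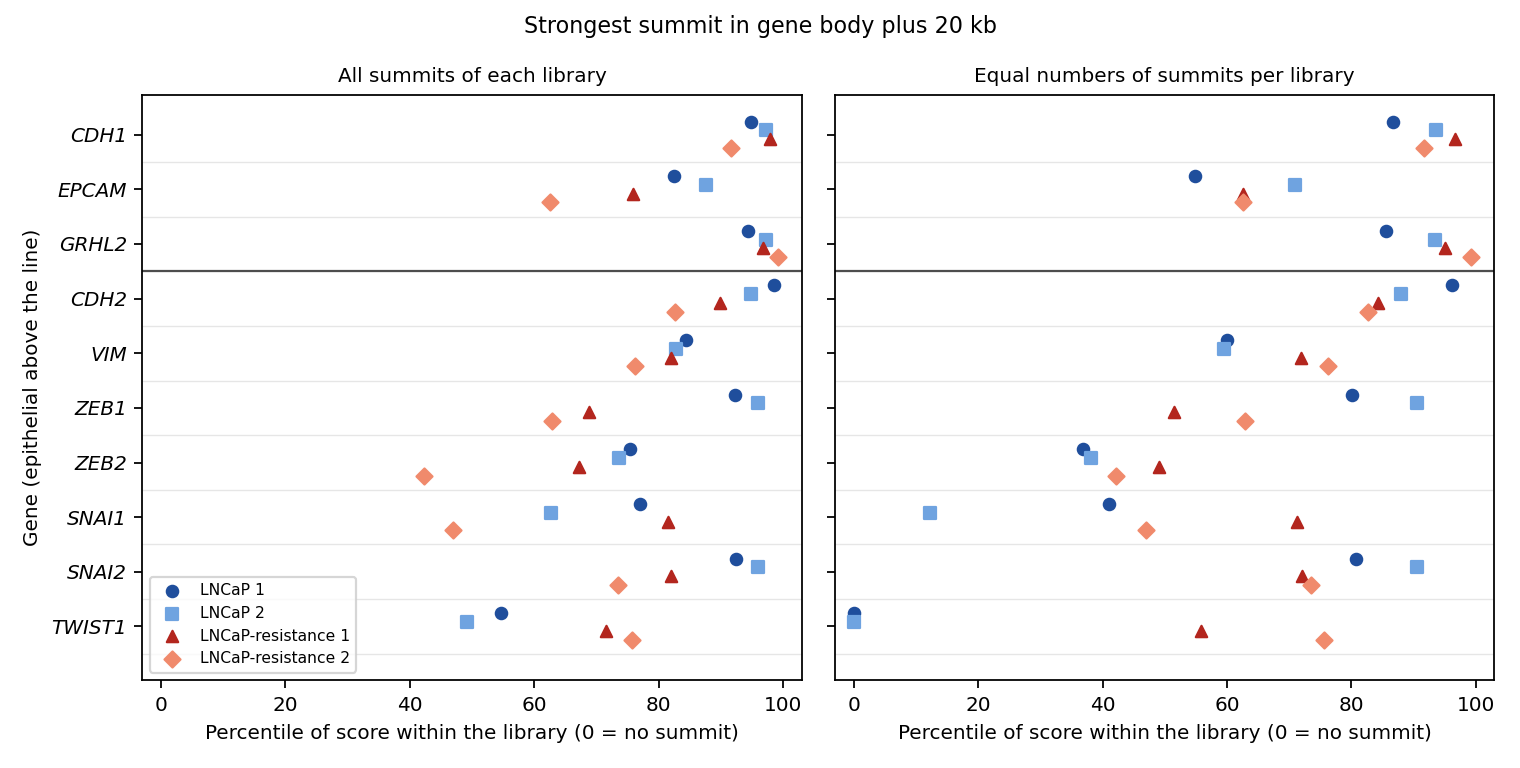
Percentile of the strongest summit in the gene body plus 20 kb (horizontal axis, 0 to 100) for each of the 10 genes, with 1 symbol per library, from all summits on the left and from equal numbers of summits on the right. *TWIST1* is higher and *ZEB1*, *SNAI2* and *CDH2* are lower in both resistant libraries in both panels, while *VIM* and *ZEB2* change sides.

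*CDH1* encodes E-cadherin, the adhesion molecule of epithelial junctions (chr16:68737292-68835537). Its window held 16 and 14 summits in LNCaP and 13 and 9 in the resistant libraries. The strongest reached the percentiles 94.8 and 97.3 in LNCaP against 97.9 and 91.7 in the resistant cells, so that the cell lines overlapped. The medians of all protein-coding genes by this measure were 90.5 and 89.7 in LNCaP and 88.0 and 82.6 in the resistant cells. *CDH1* thus lay above the median gene in all 4 libraries. The region at its start, chr16:68737018-68737532, ranked at 88.5 and 91.9 in LNCaP and at 85.4 and 85.4 in the resistant libraries, a change of −4.75 (pooled SD 1.72). With equal numbers of summits the start overlapped, at 70.3 and 80.9 against 77.4 and 85.4.

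The regions inside *CDH1* did change. At the far end of the gene, 0.802 kb inside it, chr16:68834485-68834986 held summits at 93.2 and 92.8 in LNCaP and none in either resistant library. With equal numbers its ranks in LNCaP were 82.6 and 82.9, and it was again absent from both resistant libraries. At 41.8 kb inside the gene, the percentiles were 93.4 and 95.5 in LNCaP and 76.9 and 65.5 in the resistant cells (−23.2, SD 5.80), and the region stayed lower with equal numbers, at 83.2 and 89.3 against 64.2 and 65.5. At 19.1 kb the order was the other way with equal numbers, at 78.0 and 40.6 in LNCaP and 96.8 and 88.1 in the resistant cells, while the values from all summits, 91.4, 74.7, 97.9 and 88.1, overlapped. The largest fall of a shared region by all summits lay 5.11 kb before the start, inside *CDH3*, at 65.7 and 87.6 in LNCaP and 56.8 and 16.7 in the resistant cells (−39.9, SD 22.8), and it overlapped with equal numbers. The strongest summit of the window thus did not separate the lines, whereas the regions at the far end and at 41.8 kb did on both scales.

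*EPCAM*, a surface adhesion molecule of epithelia (chr2:47369311-47387020), held 3 summits in every library. The strongest ranked at 82.5 and 87.6 in LNCaP and at 76.0 and 62.6 in the resistant libraries, a change of −15.8 (SD 7.16). Without LNCaP-resistance 2 the change was −9.10, and with equal numbers the lines overlapped. The resistant maximum lay farther than 1 kb from either end of *EPCAM*. Near the gene's own ends, the ranks were 82.5 and 87.6 in LNCaP and 65.9 and 47.5 in the resistant cells. They stayed lower with equal numbers, at 54.9 and 70.9 against 47.1 and 47.5. These values come from different places. The summit lay 93 bp before the start in LNCaP 1 and 719 bp inside the gene in LNCaP 2, and 76 and 327 bp before the start in the resistant libraries. Read region by region, both places overlapped between the lines, and LNCaP 2 had no summit in the region before the start. A region 1.40 kb past the far end held summits at 70.6 and 69.3 in LNCaP, at 21.4 in LNCaP-resistance 1 and none in LNCaP-resistance 2.

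*GRHL2* encodes the grainyhead factor that keeps epithelial genes active (chr8:101492439-101681200). Its start was higher in the resistant cells while several regions inside the gene were lower. The start region, chr8:101492076-101492604, ranked at 93.2 and 91.2 in LNCaP and at 96.9 and 99.2 in the resistant cells, a rise of 5.85 (SD 1.54). The rise was larger with equal numbers, from 82.5 and 79.2 to 95.1 and 99.2. This region lies inside *GRHL2-DT*, the divergent transcript, so the 2 starts cannot be told apart here.

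Inside the gene, 21 regions lay beyond 1 kb from the start, and 19 of them held a summit in each LNCaP library against 9 and 4 in the resistant libraries. The whole lists fell as well, from 117245 and 107344 summits in LNCaP to 70866 and 45618 in the resistant libraries. Of the 21 regions, 8 were open in both LNCaP libraries and in no resistant library, and none the reverse. The genome had 27.5% and 3.84% of such regions. With equal numbers 2 of the 8, at 51.1 and 121 kb, kept a summit in both LNCaP libraries. At 91.2 kb, the ranks were 94.4 and 97.2 in LNCaP and 55.4 and 51.2 in the resistant cells (−42.5, SD 2.51), which was the deepest fall of a shared region in any of the 10 genes. At 143 kb the ranks were 89.0 and 97.1 against 69.6 and 66.5. Both regions were lower with equal numbers too, the first at 85.6 and 93.4 against 30.7 and 51.2. A shared region 12.4 kb inside the gene overlapped, at 71.1 and 76.9 against 86.7 and 58.1, and was higher with equal numbers, at 25.7 and 45.5 against 79.4 and 58.1. The strongest of the regions absent from the resistant cells, at 121 kb, ranked at 79.5 and 80.1 in LNCaP. The only region of an epithelial gene that was open in both resistant libraries and neither LNCaP library lay 18.0 kb before *GRHL2*, at 72.1 and 59.1, also inside *GRHL2-DT*. By the number of summits, *GRHL2* held 21 and 22 in LNCaP and 14 and 7 in the resistant libraries, where 49.8% of all protein-coding genes held fewer in both.

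**Figure D2:**
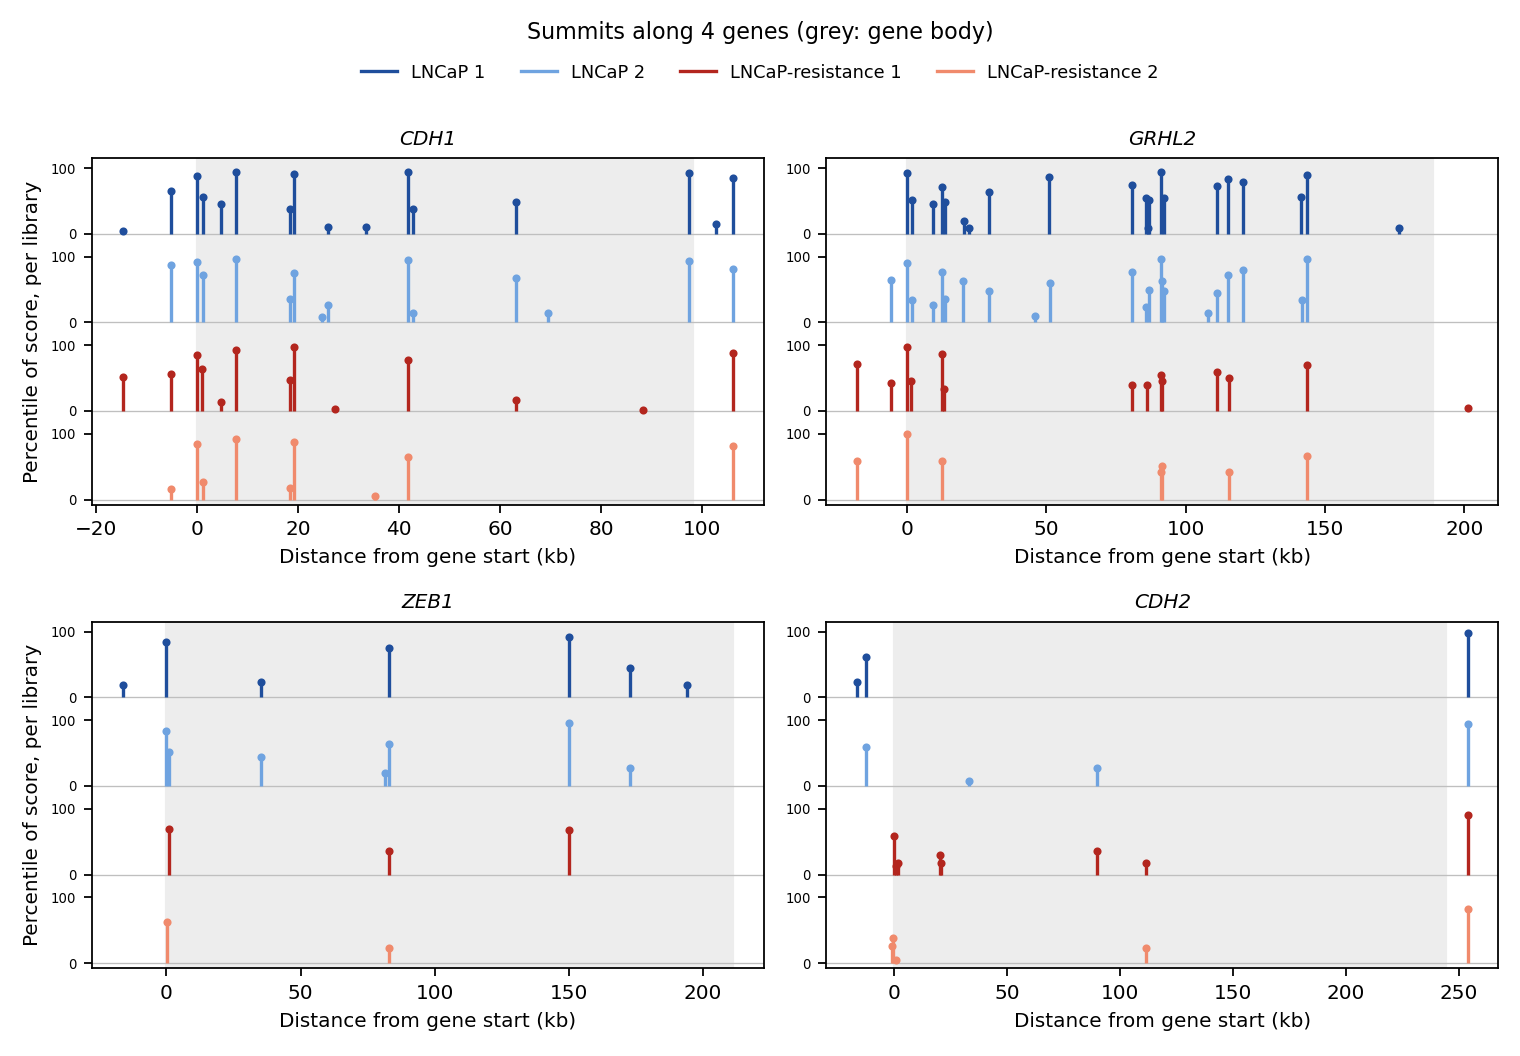
Summits along *CDH1*, *GRHL2*, *ZEB1* and *CDH2*, with distance from the gene start in kb on the horizontal axis, the percentile of each summit as its height and 1 track per library (grey, gene body). The resistant tracks lack many of the LNCaP summits inside *GRHL2* and *ZEB1*, whereas only they hold summits at the start of *CDH2*.

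Among the mesenchymal genes, *CDH2* gained summits at its start. It encodes N-cadherin (chr18:27932879-28177130), and it was the only one of the 10 genes with more summits in both resistant libraries, 8 and 5, than in LNCaP, 3 and 4. Over all protein-coding genes 2.33% held more summits and 49.8% fewer. Within 1 kb of its ends no summit was listed in either LNCaP library, whereas the resistant libraries held one at 59.0 and 38.2, in chr18:28177001-28177630. These summits lay 121 and 250 bp before the start, within the sequence printed above, and they remained at 36.3 and 38.2 with equal numbers. A weaker region 0.83 kb inside the gene, at 12.9 and 5.18, and one at 112 kb, at 16.8 and 23.8, were likewise open in the resistant cells only. The ranks are of the middle or the lower part of each list, well under those at the start of *CDH1*.

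The strongest summit of the *CDH2* window went the other way. It lay 9.73 kb past the far end, in *CDH2-AS1*, at 98.5 and 94.9 in LNCaP and 89.9 and 82.7 in the resistant libraries, a change of −10.4 (SD 4.02). The change was −6.80 without LNCaP-resistance 2. With 5 kb in place of 20 kb on either side this summit fell outside the window, and the change was 35.1, higher. A region 12.4 kb before the start, at 60.9 and 58.6, was open in LNCaP only. The call for *CDH2* therefore turned on which region was read.

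*VIM* encodes vimentin, the intermediate filament of mesenchymal cells (chr10:17228241-17237593). *VIM* had no summit within 1 kb of either end in any library. One region, 2.14 kb inside the gene, was open in all 4 libraries, at 84.4 and 82.8 in LNCaP and 81.9 and 76.3 in the resistant cells (−4.55, SD 2.94). The change was −1.73 without LNCaP-resistance 2 and −7.38 without LNCaP-resistance 1. With equal numbers it was 14.3, higher, at 60.0 and 59.6 against 71.9 and 76.3. The direction for *VIM* thus depended on the length of the lists. One region 7.36 kb before the gene, inside *VIM-AS1*, was open in LNCaP only, at 13.3 and 47.8.

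*ZEB1*, the repressor of *CDH1* that opposes GRHL2 (chr10:31318417-31529804), was lower in the resistant cells by its strongest summit. The strongest of each library stood at 92.3 and 96.0 in LNCaP and 68.8 and 62.9 in the resistant libraries (−28.3, SD 3.49). With equal numbers the values were 80.2 and 90.6 against 51.6 and 62.9 (−28.1). They come from different places. The LNCaP maximum lay 150.0 kb inside the gene, whereas the resistant maxima lay 1113 and 348 bp inside it. At 150.0 kb LNCaP-resistance 1 had a summit at 67.6 and LNCaP-resistance 2 had none. With equal numbers that region stood at 80.2 and 90.6 against 49.6 and none. At 83.1 kb the ranks were 75.5 and 64.3 against 36.1 and 23.8, and with equal numbers they overlapped, at 36.9 and 16.0 against 0.74 and 23.8. The 2 regions open in LNCaP only, at 35.4 and 173 kb, ranked at 44.6 or below in both LNCaP libraries.

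At the *ZEB1* start the summits lay at different places. In LNCaP they stood 77 and 53 bp before the start, in the printed sequence, at 83.9 and 83.1. LNCaP-resistance 2 had its summit 348 bp inside the gene, at 62.9. LNCaP-resistance 1 had none within 1 kb of an end, and its nearest, at 68.8, lay 1113 bp inside in a region it shared with LNCaP 2, at 52.2. With equal numbers the start region overlapped, at 58.6 and 60.2 against none and 62.9. RefSeq annotates further starts of *ZEB1* there, and *ZEB1-AS1* overlaps them.

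**Figure D3:**
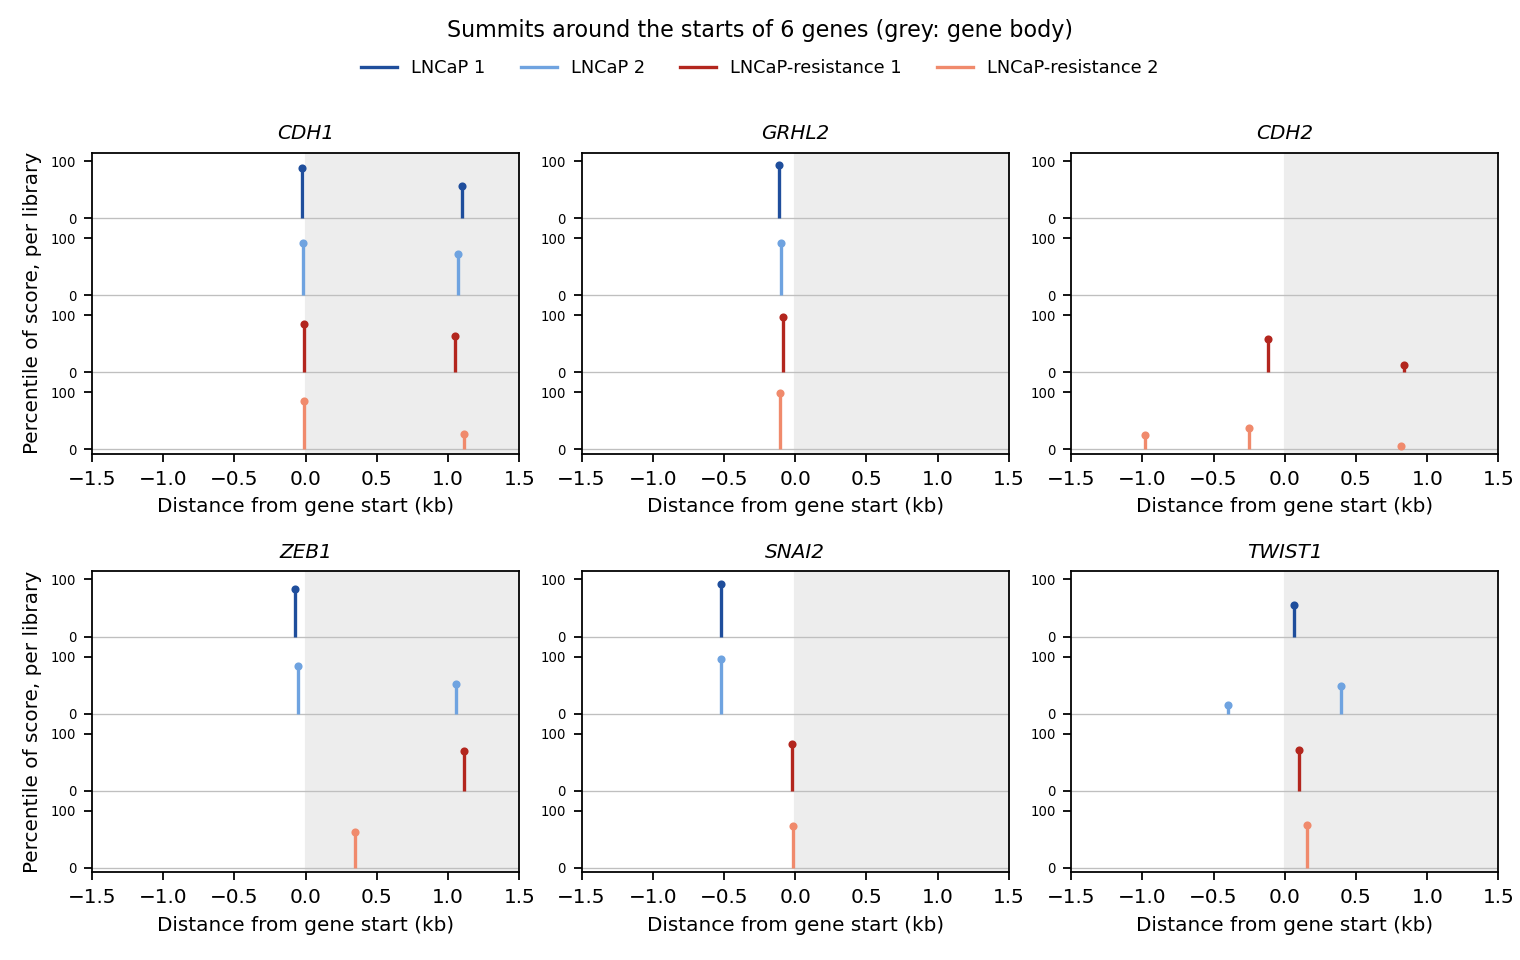
Summits within 1.5 kb of the starts of *CDH1*, *GRHL2*, *CDH2*, *ZEB1*, *SNAI2* and *TWIST1* (horizontal axis, distance from the start in kb, height, percentile, 1 track per library, grey, gene body). The *CDH1* and *GRHL2* summits coincide across the 4 libraries, the *CDH2* summits occur in the resistant libraries only, and the *SNAI2* summit lies at another place in each cell line.

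*ZEB2*, the second ZEB repressor (chr2:144384081-144520119), changed direction with the list length. Its strongest summit stood at 75.5 and 73.7 in LNCaP and at 67.2 and 42.2 in the resistant cells, a change of −19.9 with an SD of 12.5. Without LNCaP-resistance 2 the change was −7.36, and without LNCaP-resistance 1 it was −32.3. With equal numbers it was 8.14, at 36.9 and 38.1 against 49.1 and 42.2. The region that held the LNCaP maximum, 63.3 kb inside the gene, stood at 61.2 and 41.1 in the resistant cells, whose maxima lay at 49.6 kb. The start was open weakly, at 4.70 and 33.1 in LNCaP and 17.7 in LNCaP-resistance 1, with no summit in LNCaP-resistance 2. All 4 of its regions open in LNCaP only, the strongest at 86.7 kb with 47.8 and 33.1, fell out of the lists with equal numbers.

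*SNAI1* encodes Snail, a repressor of *CDH1* (chr20:49982980-49988886), and its start was open in all 4 libraries. The ranks were 77.1 and 62.7 in LNCaP and 81.5 and 47.0 in the resistant cells, with the libraries of each line far apart (−5.67, SD 18.7). With equal numbers they were 41.1 and 12.3 against 71.2 and 47.0, higher. A region 1.48 kb past the far end, at 63.9 and 56.7, and another 17.9 kb before the start, at 47.8 and 27.1, were open in LNCaP only.

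*SNAI2* encodes Slug (chr8:48917598-48921429), and the summit near its start lay at another place in each cell line. Both LNCaP libraries had one 523 and 524 bp before the start, in chr8:48921702-48922203, at 92.5 and 96.0. That region lies inside *LOC107986942*. Both resistant libraries had one 20 and 17 bp before the start, in chr8:48921196-48921699, at 82.0 and 73.4, inside no annotated gene. The change of the strongest summit was −16.5 (SD 4.64) and −12.9 with equal numbers. It was 0.00 in the gene body alone, which held no summit. By presence these places count as 1 region open in LNCaP only and 1 open in resistant cells only, although they lie side by side, and with 500 bp in place of 250 bp they merged.

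*TWIST1*, a helix-loop-helix inducer of the mesenchymal program (chr7:19113047-19117636), was, with all summits counted, the one gene of the 10 whose strongest summit was higher in both resistant libraries. With equal numbers *GRHL2*, *VIM*, *ZEB2* and *SNAI1* were higher as well. It had 1 region, at its start, at 54.7 and 49.1 in LNCaP and 71.6 and 75.7 in the resistant libraries, a change of 21.7 (SD 3.46). Within the batches the change was 16.9 and 26.6. With equal numbers the LNCaP summits fell out of the lists, and the resistant ones stood at 55.8 and 75.7. The deposited scores, which also depend on depth, were 13.3 and 10.0 in LNCaP and 33.2 and 25.2 in the resistant cells.

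Within 1 kb of a gene end, 1 epithelial gene was higher (*GRHL2*) and 2 were lower, and 2 mesenchymal genes were higher (*CDH2*, *TWIST1*), 2 were lower (*ZEB1*, *SNAI2*) and 3 overlapped. Over all protein-coding genes 20.3% were higher and 17.3% lower at the ends, with a median change of 0. With equal numbers 3 mesenchymal genes were higher (*CDH2*, *SNAI1*, *TWIST1*), 1 was lower (*SNAI2*) and *ZEB1* overlapped, while *GRHL2* was higher, *EPCAM* lower and *CDH1* overlapped. All protein-coding genes then gave 44.4% higher and 4.49% lower. For *CDH1* this measure sets the far end of the gene in LNCaP against its start in the resistant cells. For *EPCAM* it takes the LNCaP values from different regions at the start, neither of which was called lower by itself.

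By presence, both sides had shares of LNCaP-only regions near that of the genome. Of the 50 epithelial regions 14 were open in all libraries (28.0%), 11 in LNCaP only (22.0%) and 1 in resistant cells only (2.00%), and of the 44 mesenchymal regions 8 (18.2%), 11 (25.0%) and 4 (9.09%). The whole genome gave 21.1%, 27.5% and 3.84%. All 4 mesenchymal regions open in resistant cells only lay at *CDH2* and *SNAI2*, 3 of them within 1 kb of a start. All 11 epithelial regions open in LNCaP only lay inside *CDH1* and *GRHL2*, and none at a start. Of all regions, 4 of the 50 epithelial and 9 of the 44 mesenchymal ones lay within 1 kb of a start. Genome shares by place were not taken, so these counts have no background. With equal numbers of summits the regions open in LNCaP only numbered 4 of 31 and 1 of 21, and those open in resistant cells only 2 and 4. The genome then gave 17.1% and 14.9%. Without LNCaP-resistance 1 the epithelial regions open in LNCaP only numbered 18 of 47, where the genome gave 38.0%. Without LNCaP 1 the mesenchymal ones numbered 18 of 41, where the genome gave 43.7%.

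**Figure D4:**
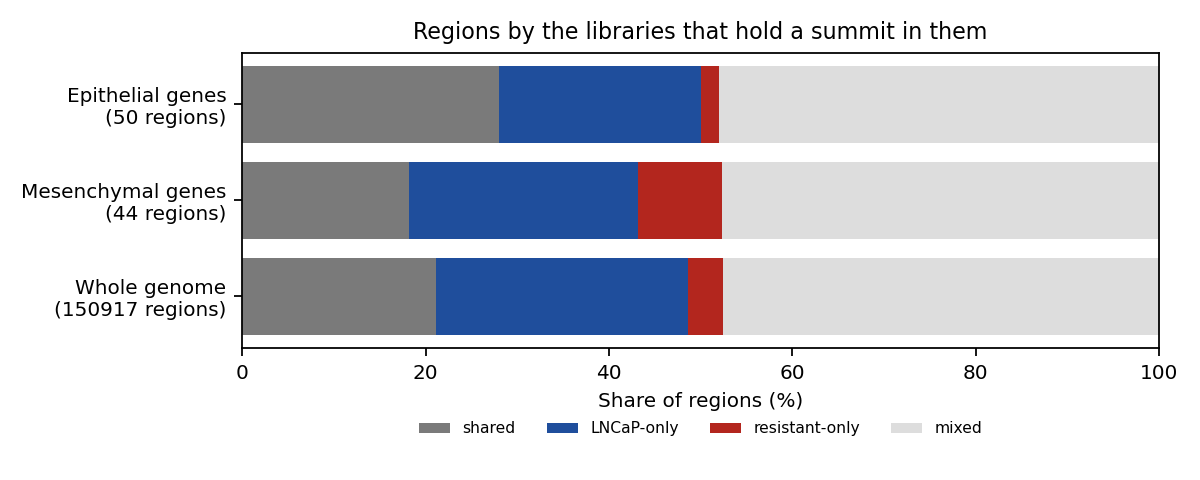
Share of regions (horizontal axis, percent) that held a summit in all 4 libraries (shared), in both LNCaP libraries alone, in both resistant libraries alone, or in another mix, for the 50 epithelial regions, the 44 mesenchymal regions and the 150917 regions of the genome. The LNCaP-only shares are 22.0%, 25.0% and 27.5%, and the resistant-only shares 2.00%, 9.09% and 3.84%.

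Among regions open in all libraries, 8 of the 14 epithelial ones were lower in the resistant cells and 1 was higher, and 4 of the 8 mesenchymal ones were lower and 1 was higher. Over the 31833 such regions of the genome 41.8% were lower and 17.7% higher. With equal numbers, 6 epithelial ones were higher and 3 lower, and 6 mesenchymal ones were higher and 1 lower, against 51.3% higher and 17.6% lower in the genome. The epithelial regions that stayed lower were the one 41.8 kb inside *CDH1* and those 91.2 and 143 kb inside *GRHL2*. The mesenchymal one was the region past *CDH2*.

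Further genes of the program were taken from lists of 20 each. Of the epithelial list, 4 were higher, 7 lower and 9 overlapped (median −1.10), and with equal numbers 11 were higher and 5 lower. For all protein-coding genes the shares were 14.7% and 40.9%, and 42.6% and 18.1% with equal numbers, and the counts of both lists lay near them. The largest falls were those of *KRT19*, a luminal keratin (−70.3, with ranks of 68.1 and 76.4 in LNCaP and none or 3.86 in the resistant libraries), of *CLDN7*, a claudin of tight junctions (−13.1), and of *DSP*, which encodes desmoplakin (−7.31). The 4 called higher were *CRB3*, a polarity gene (7.21), *CLDN3*, another claudin (1.35), and *KRT18* and *KRT8* (1.00 and 0.952, with overlapping windows), which encode the paired keratins of simple epithelia. *KRT19*, *CLDN7* and *DSP* were lower with equal numbers as well.

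Of the mesenchymal list, 3 were higher, 9 lower and 8 overlapped (median −6.75), and with equal numbers 11 were higher and 4 lower. The largest rises were those of *PRRX1*, a mesenchymal homeobox factor (29.5), of *COL1A1*, a chain of type I collagen (12.1), and of *AXL*, a receptor kinase (6.45). The largest falls were those of *SPARC*, a matrix protein (−39.0), of *TGFBI*, a matrix protein induced by TGF-β (−28.6), and of *TWIST2*, the paralog of *TWIST1* (−25.7). *TWIST2* ranked at 90.1 and 95.9 in LNCaP and 86.6 and 48.0 in the resistant cells, the opposite direction to *TWIST1*, and overlapped with equal numbers.

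**Figure D5:**
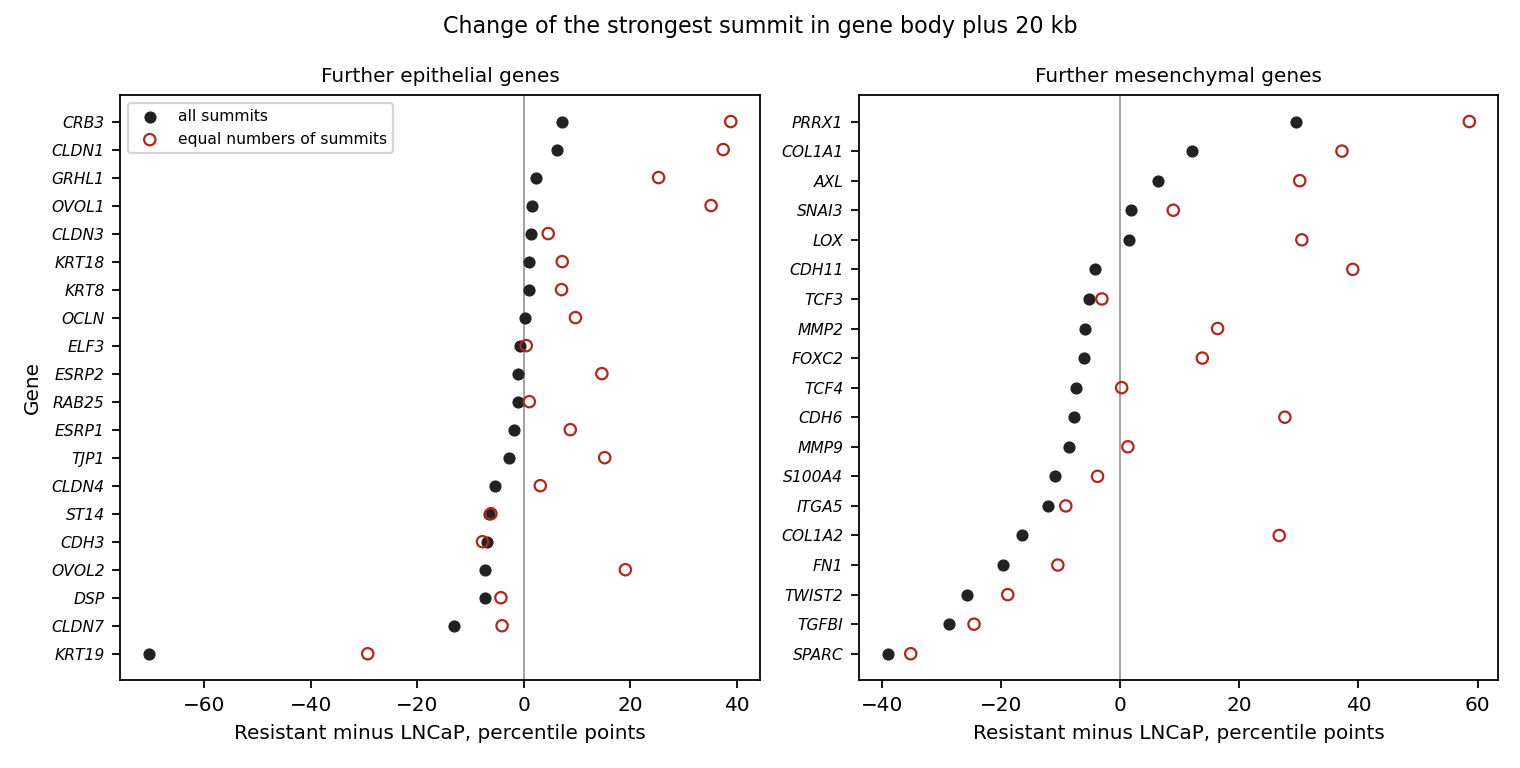
Change of the strongest summit, resistant minus LNCaP, in percentile points (horizontal axis) for 20 further epithelial and 19 of the 20 further mesenchymal genes, from all summits (filled) and from equal numbers of summits (open). *KRT19* fell by 70.3 points and *PRRX1* rose by 29.5, and most other genes shift to the right with equal numbers.

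Markers of the labelled cell type were checked at gene ends. Of 10 prostate luminal genes, 9 had a summit within 1 kb of an end in every library, and *KLK3* had none in any. Of the fibroblast markers 2, 1, 1 and 1 of 6 had one, of the leukocyte markers 2, 1, 2 and 1 of 6, and of the endothelial markers 1, 1, 1 and 0 of 4, in the order LNCaP 1, LNCaP 2, LNCaP-resistance 1 and LNCaP-resistance 2. By the strongest summit in the window, 7 of the 10 luminal genes were lower (median −11.5) and 4 of the 4 endothelial genes (median −21.1). With equal numbers these were 3 and 2. Over all protein-coding genes 40.9% were lower, and 18.1% with equal numbers. The part of these marker changes in the values of the mesenchymal genes was not tested. Within 1 kb of an end, *PTPRC*, *PECAM1*, *DCN* and *LUM* had no summit in any library. In the same order of libraries, *SPI1* had one in each, at 83.7, 89.8, 89.5 and 85.0. *COL1A2* did too, at 63.0, 55.3, 37.1 and 17.5. *KDR* had one at 53.6, 79.5 and 33.0 and none in LNCaP-resistance 2.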

How the data were processed

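ATAC-seq had been performed on LNCaP cells and enzalutamide-resistant LNCaP cells, with 2 libraries each. The authors deposited 1 list of summits per library on hg38, called per library, with between 45618 and 117245 entries and 1 score per entry, read from its range as −log10 of a p-value or q-value, with the choice between them not given in the sources used here. The submitters' processing notes name Bowtie2 2.2.5, SAMtools 1.6, MACS2 2.2.6, deepTools 3.5.2, HOMER 4.11 and edgeR 3.22.5. No read counts come with them. Depth, and hence precision, is unknown, and fewer open sites in the resistant cells cannot be told apart from lower depth.

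Scores were ranked within each library, gene positions were taken from the RefSeq table of GRCh38.p14, and merged regions and calls were made as described with the results. A region was shared, LNCaP-only or resistant-only when it held a summit in all libraries, in both of one line and in no library of the other, or the reverse, and mixed otherwise. The pooled SD is that between the 2 libraries of a line. The table gives no strand. The start side was taken from the RefSeq promoter table for *CDH2*, *VIM*, *ZEB1* and *ZEB2* and from general knowledge for the others. The genes and lists were chosen with earlier results of these data known. For each gene the start region, the shared regions with the largest rise and fall beyond the pooled SD, and the strongest LNCaP-only and resistant-only regions were named, and of each further list the 3 largest changes in each direction that did not overlap. Some other regions were added after their values were seen. The values of 1 further gene and of 1 neighbouring gene are not reported here. The alternatives concerned flank, score, list length, scale, region width, membership and libraries. The code was tested on simulated lists. Python 3.11.15, numpy 2.4.6 and pandas 2.3.3 were used.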

Additional observations from a re-analysis of the deposited data

How the results depend on the processing

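No paired analysis was possible because the results come from no test, and the difference within each batch is given instead. The median change of the strongest summit, −1.28 for epithelial and −10.4 for mesenchymal genes, was −19.21 and 0.00 in the gene body alone, −1.28 and −5.67 with 5 kb, −4.38 and −10.39 with 50 kb, −2.11 and −17.58 with scores of at least 10, 4.03 and 8.14 with equal numbers of summits, and 3.33 and −2.41 on a scale of the shared regions. It was 2.46 and −8.24 in the first batch and −5.66 and −15.73 in the second, and it ranged from −4.41 to 1.05 and from −20.82 to −6.80 when each library was left out. The change was positive for *CDH2* with 5 kb (35.08) and in the gene body alone (16.41, overlapping), for *VIM* with 50 kb (1.28, overlapping), equal numbers (14.27) and the shared scale (5.18), and for *ZEB2* with equal numbers (8.14). The change of *TWIST1* was positive and that of *ZEB1* negative under every alternative run for them.

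Regions are given as shared, LNCaP-only and resistant-only, 14, 11 and 1 for epithelial and 8, 11 and 4 for mesenchymal genes. They came from 50 and 44 regions. The genome gave 21.1%, 27.5% and 3.84%, whatever the flank. In the gene body alone they numbered 9, 11 and 0 and 6, 6 and 2, with 5 kb 11, 11 and 0 and 7, 8 and 4, and with 50 kb 18, 19 and 2 and 12, 17 and 4. All regions of these windows numbered 38 and 28, 43 and 36, and 71 and 67. With scores of at least 10 the classes numbered 10, 6 and 1 and 3, 3 and 1, and with equal numbers 12, 4 and 2 and 5, 1 and 4. They came from 35 and 22 and from 31 and 21 regions. The genome then gave 21.2%, 25.0% and 4.33%, and 26.8%, 17.1% and 14.9%. The first batch alone gave 24, 15 and 5 and 10, 15 and 11, and the second 15, 23 and 3 and 9, 25 and 5. These counts came from 44 and 36 regions in the first batch and from 41 and 39 in the second. The genome gave 35.5%, 48.9% and 15.6% in the first batch, and 29.96%, 60.8% and 9.24% in the second. A half-width of 100 bp gave 12, 12 and 2 and 5, 12 and 5, one of 500 bp gave 14, 8 and 1 and 10, 10 and 2, and membership by at least 1 library 26, 19 and 5 and 15, 21 and 8. All regions numbered 57 and 52, 44 and 39, and 50 and 44. The genome gave 16.3%, 25.0% and 3.94%, then 23.3%, 28.3% and 3.60%, then 35.1%, 52.0% and 12.9%. Leaving out each library in turn gave 14 to 21, 11 to 18 and 1 to 4 and 8 to 10, 12 to 18 and 4 to 7. The genome then gave 23.6% to 28.8%, 28.6% to 46.9% and 5.23% to 12.0%. The causes of these shifts were not tested, apart from the windows and lists that hold fewer summits by construction.

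No value of *SNAI2* was had on the shared scale. All protein-coding genes had a median change of −1.88, which was 2.84 with equal numbers and 2.99 on the shared scale. It was −3.47 in the gene body alone, −1.25 with 5 kb, −1.83 with 50 kb and −1.52 with scores of at least 10. The lists limit what can be seen: an absent summit is one not listed by the caller, only percentiles and not amounts of open chromatin are compared, and which gene a summit in a shared window serves was not measured.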

Other observations

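The windows of the 10 genes overlap other genes, among them *CDH3* in the window of *CDH1*. The values below are for *CDH3* and other genes of the further lists. They are those within 1 kb of either gene end, unless the window is named. *CDH3*, which encodes P-cadherin of basal epithelium and lies next to *CDH1*, had no summit within 1 kb of its ends in LNCaP 1 and one at percentile 28.0 in LNCaP 2, against 74.9 and 70.8 in the resistant libraries. *OVOL2*, a repressor of *ZEB1*, had none in LNCaP and ranked at 77.6 and 59.3 in the resistant cells, while *RAB25*, an epithelial trafficking gene, stood at 97.6 and 97.0 in LNCaP and had none in the resistant cells, although the strongest summit of its window stood at 93.7 and 98.5 there. By the strongest summit in the window *CDH3* was lower, at 99.4 and 98.9 against 92.8 and 91.7. Among mesenchymal genes, *FOXC2*, a forkhead factor, had none in LNCaP and ranked at 71.4 and 63.0 in the resistant cells, while the strongest summit of its window was lower, at 80.2 and 84.4 against 77.7 and 74.8. *TWIST2* went the other way, at 81.3 and 79.3 against 5.41 and none. These genes were picked after their values were seen.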
